A study of Mus musculus with 6 samples.

Results

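The chaperone genes described here are the protein-coding genes named for the HSP70 family (Hspa and Hsph1), the HSP90 family, the mitochondrial chaperonin (Hspd1 and Hspe1) and the J-domain families Dnaja, Dnajb and Dnajc. The rule used gene name and biotype, and the members number 64 of the 54532 genes in the deposited table, of which 22046 are protein-coding. By family there were 14 HSP70, 3 HSP90, 2 chaperonin, 4 Dnaja, 13 Dnajb and 28 Dnajc genes. By role they were set apart as 9 germ cell members, 7 stress-induced members, 14 constitutive cytosolic members, 14 members of the endoplasmic reticulum, 10 mitochondrial members, 3 nuclear members, 5 members of membrane traffic and 2 divergent HSP70 members.

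Messenger RNA was sequenced in 6 libraries of STRA8+ mouse testis cells, 3 labelled cKO, for conditional knockout, and 3 labelled Control, with Cre as their genotype. STRA8 is made in germ cells that are about to enter meiosis. The study's title concerns the splicing factors BCAS2 and hnRNPH1 in break repair and synapsis in meiotic prophase. The labels give neither the deleted gene, the promoter that drives Cre, the age of the mice nor the strain, and they do not say whether libraries came from separate animals, so a p-value here sets a difference against the spread among libraries. Levels are in FPKM, the deposited unit, reads scaled by gene length and by a factor for each library.

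Molecular chaperones help proteins fold, assemble and cross membranes, and keep damaged proteins from clumping. HSP70 proteins bind and release short stretches of unfolded chains, J-domain (DnaJ) proteins bring clients to HSP70 and set off its ATP hydrolysis, and HSP90 matures a narrower range of clients such as kinases and steroid receptors. Most tissues pair constitutive members with members that heat shock factor 1 induces under stress. Testis adds further members that are made mainly in spermatocytes and spermatids: Hspa2, whose loss blocks mouse spermatocytes in meiotic prophase, Hspa1l and several Dnajb and Dnajc genes.

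The libraries held 14770320 to 15204127 reads in the knockout and 14532453 to 16963019 in the controls, as recovered from the FPKM and gene lengths. Log2 levels correlated at 0.969 to 0.987 between libraries of a group and at 0.172 to 0.285 between groups. Bcas2 averaged 4.85 ± 0.515 FPKM in the knockout and 19.9 ± 0.586 FPKM in the controls (SD, n = 3 each), a log2 fold change of -1.93 with a limma adjusted p of 7.6e-07. Hnrnph1 averaged 140.1 ± 14.0 FPKM in the knockout and 63.8 ± 3.26 FPKM in the controls. Stra8, which gives the cells their label, averaged 132.8 ± 6.42 FPKM in the knockout and 17.0 ± 5.55 FPKM in the controls, a log2 fold change of 2.98 with an adjusted p of 4.1e-06. Summed FPKM of 13 spermatid markers was 7.32 to 10.5 in knockout libraries and 18868 to 21991 in control libraries, and that of 12 pachytene spermatocyte markers was 19.5 to 30.3 against 5047 to 6156. Summed FPKM of 12 spermatogonia markers was 669.1 to 793.8 in the knockout against 85.6 to 140.4 in the controls, and that of 12 Sertoli cell markers, somatic support cells, was 663.0 to 1177 against 173.1 to 371.9. Every spermatid and pachytene marker on these lists was lower in the knockout, while 11 of 12 spermatogonia markers and 12 of 12 Sertoli markers were higher. Macrophage markers summed to 97.3 to 313.7 FPKM in the knockout against 59.9 to 103.6 in the controls, with 4 of 8 tested higher and 0 lower. Leydig cell markers summed to 22.5 to 80.5 FPKM against 91.1 to 151.5, with 2 of 7 higher and 4 lower, and peritubular myoid markers to 21.9 to 40.0 FPKM against 167.0 to 207.7, with 0 of 5 higher and 1 lower. In bulk RNA, fewer cells of a type and less RNA per cell cannot be told apart. The extraction protocol in the labels speaks of retinas, whereas the other labels name testis. The 10 photoreceptor markers summed to 1.08 to 1.43 FPKM in the knockout and 2.36 to 2.41 FPKM in the controls.

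The scale between the groups bears on each direction below. The deposited FPKM were divided by 1.37 to 1.42 times the reads of a knockout library and by 0.691 to 0.775 times the reads of a control library. The differences were therefore also computed under 3 other scalings. Across the tested genes the median log2 fold change was -0.41 as deposited, and it was higher by 1.12 (FPKM rescaled to sum to 1000000), 0.83 (reads rescaled to 1000000) and 0.94 (quantile normalization). A change is called robust to scaling where it passed the threshold with 1 sign in all 4 versions, the deposited one included.

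Of the 64 chaperone genes, 62 had a mean of at least 1 FPKM and were tested with limma on log2(FPKM + 0.5), knockout minus control. As deposited, 54 of the 62 passed an adjusted p of 0.05, 17 of them higher and 37 lower in the knockout. Of all 16791 genes tested, 86.6% passed, with 36.2% higher and 50.4% lower. After rescaling FPKM to a common sum, 33 chaperone genes were higher and 23 lower, and of all genes 90.5% passed, with 54.2% higher and 36.2% lower. After rescaling the shares among chaperone genes were near those of all genes. As deposited a smaller share of chaperone genes was higher and a larger share lower, a difference that was not tested. The median log2 fold change was -0.81 over the chaperone genes and -0.41 over all genes as deposited, and 0.36 and 0.71 after rescaling. Directions robust to scaling were found for 17 higher and 22 lower chaperone genes, and the other 23 differed between scalings. That is 27.4% higher and 35.5% lower, against 36.2% and 34.2% of all genes tested, so the share lower was near that of all genes. The 64 genes together took 11861 ± 269.8 of each 1000000 FPKM in the knockout and 11691 ± 157.1 in the controls (SD, n = 3 each). The sums differed by less than the SD of the knockout libraries, while their make-up changed, as the plot of levels shows.

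**Figure D1:**
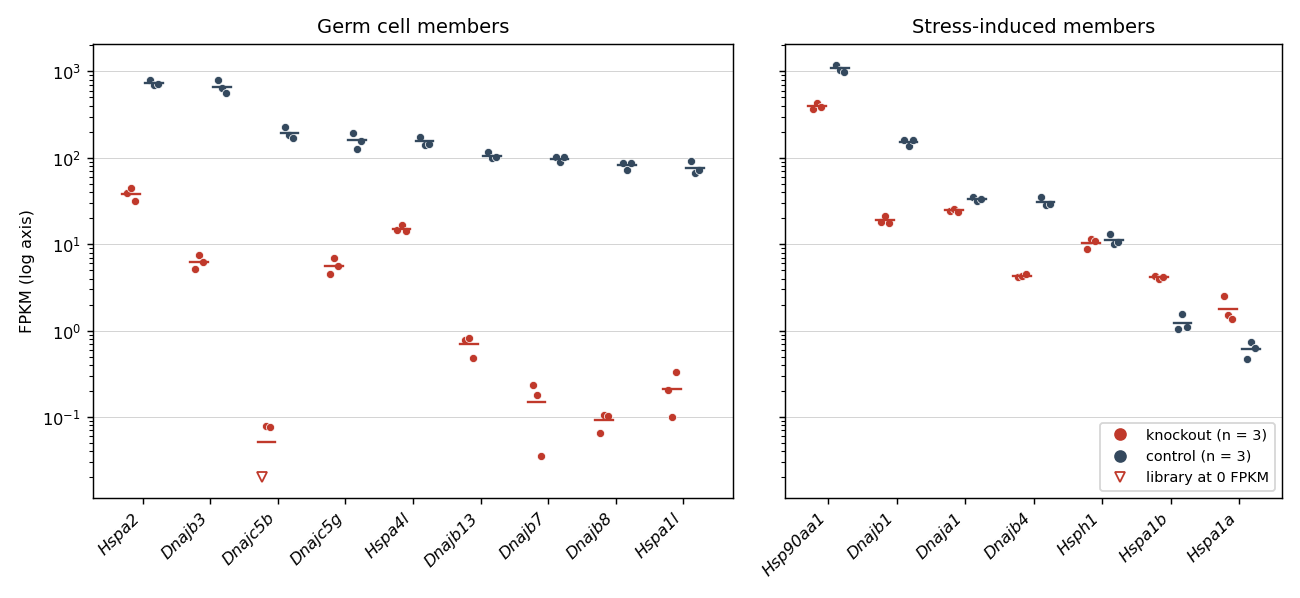
FPKM of the chaperone members on a log axis, with knockout libraries left of control libraries and 1 point per library. The germ cell members lie far lower in every knockout library, and the open triangle marks Dnajc5b, which is listed at 0 in knockout library 1.

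The germ cell members were far lower in the knockout libraries, though Hspa2 and Hspa4l still averaged 38.4 and 15.1 FPKM there. All 9 were tested and all 9 were lower, under each of the 4 scalings. Of all genes tested, 50.4% were lower as deposited and 34.2% under all 4 scalings. The list was drawn up with earlier results of these data known, so its count is a description only. Their summed level was 66.7 ± 9.33 FPKM in the knockout and 2272 ± 264.1 FPKM in the controls (SD, n = 3 each). That was 2.71 ± 0.317% of all chaperone FPKM in the knockout and 41.1 ± 1.74% in the controls. The median log2 fold change of the 9 was -6.62 as deposited, 6.21 below that of all genes, and -5.90 after rescaling. The spermatid and pachytene markers fell together with these 9 genes, and their part in the result was not tested.

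Hspa2 encodes the HSP70 of spermatocytes, which is needed for the synaptonemal complex to come apart and for meiotic division in the mouse. The gene (ENSMUSG00000059970) is annotated at chr12:76404176-76406938 on the plus strand in mm10, the build of the deposited coordinates. It had 39.1, 44.6 and 31.6 FPKM in knockout libraries 1 to 3, against 795.1, 696.0 and 724.1 FPKM in control libraries 1 to 3. Its log2 fold change was -4.26 ± 0.134 (SE) with a limma adjusted p of 2.9e-08. The groups lay far apart, yet Hspa2 kept the highest level of the germ cell members in the knockout. Hspa4l, an HSP110 type exchange factor that is abundant in testis, had 14.4, 16.7 and 14.3 FPKM in the knockout and 175.2, 142.5 and 146.0 FPKM in the controls, with a log2 fold change of -3.31 ± 0.112 (SE) and an adjusted p of 4.4e-08. It fell least of the 9 as deposited. Hspa1l, the spermatid HSP70 of the major histocompatibility cluster, had 0.206, 0.10 and 0.332 FPKM in the knockout and 91.0, 67.3 and 71.4 FPKM in the controls. Its log2 fold change was -6.76 ± 0.166 (SE) with an adjusted p of 7.7e-09. Of its exon bases 71.9% also lie in Gm10501 on the opposite strand, and whether reads were assigned by strand is not given in the sources used here. Gm10501 itself was listed at 0.283 FPKM in the knockout and 0.0115 FPKM in the controls.

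The J-domain germ cell members fell further than Hspa2. Dnajb3, a spermatid J protein of the acrosomal region, was the most abundant of them. It had 5.10, 7.52 and 6.16 FPKM in the knockout and 789.8, 640.1 and 565.4 FPKM in the controls, a log2 fold change of -6.62 ± 0.166 (SE) with a limma adjusted p of 8.4e-09. Dnajc5g, a testis relative of the synaptic vesicle cysteine string protein, had 4.49, 6.89 and 5.58 FPKM in the knockout and 194.7, 126.0 and 155.1 FPKM in the controls. Dnajb13, a J protein of the radial spokes of the sperm tail, averaged 0.690 ± 0.185 FPKM in the knockout and 105.7 ± 9.47 FPKM in the controls. Dnajb7 averaged 0.150 ± 0.103 FPKM in the knockout and 97.7 ± 7.23 FPKM in the controls. Dnajb8, a suppressor of protein aggregation, averaged 0.0911 ± 0.0222 FPKM in the knockout and 82.2 ± 8.69 FPKM in the controls. For Dnajb8, 37.2% of exon bases also lie in 1700031F10Rik on the opposite strand, which was listed at 0 in the knockout and averaged 0.0794 FPKM in the controls. No library of one group overlapped the other for any of these genes. The share of all genes tested without such overlap was not counted, and 86.6% of them passed the threshold as deposited.

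Dnajc5b, another cysteine string protein of testis, was the member with the largest fall as deposited. It had 0, 0.0785 and 0.0767 FPKM in the knockout, against 225.5, 184.9 and 169.2 FPKM in the controls, a log2 fold change of -8.45 ± 0.134 (SE) with a limma adjusted p of 1.4e-09. Behind these values stood 0, 2 and 2 reads in the knockout and 8533 reads in the controls together. On the deposited scale the controls held 3761 times as many reads, with an exact 95% interval from 1469 to 13808 that covers counting error only. The same ratio was 643 (376 to 1209) for Dnajb7 with 13 knockout reads and 902 (457 to 2090) for Dnajb8 with 8. For Hspa1l with 33 it was 353 (251 to 514). The knockout levels of these 4 genes rest on few reads, and their order among themselves is not resolved where the intervals overlap.

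The stress-induced members did not move as a group. Of the 7, 2 were higher, 4 lower and 1 did not pass the threshold as deposited, with a median log2 fold change of -0.43, which was 0.019 below that of all genes. After rescaling FPKM to a common sum 4 were higher and 3 lower. The shares over all genes tested were 36.2% higher and 50.4% lower as deposited, and 54.2% and 36.2% after rescaling. The directions of 4 of the 7 stress-induced members were robust to scaling, Hspa1a and Hspa1b upwards and Dnajb1 and Dnajb4 downwards. Sertoli and spermatogonia markers were higher and spermatid markers lower in the same libraries, and their part in these results was not tested.

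Hspa1b, an HSP70 gene that heat shock factor 1 induces strongly, had 4.29, 3.98 and 4.20 FPKM in the knockout and 1.03, 1.58 and 1.10 FPKM in the controls. Its log2 fold change was 1.44 ± 0.157 (SE) with a limma adjusted p of 4.8e-05. Hspa1a, its close copy, had 2.51, 1.499 and 1.37 FPKM in the knockout and 0.470, 0.744 and 0.629 FPKM in the controls, a log2 fold change of 1.01 ± 0.226 (SE) with an adjusted p of 0.0031. Every knockout library was above every control library for both genes, at levels that stayed low beside those of Hspa8. Of 50-base windows of Hspa1a 58.8% also occur in Hspa1b, so the split of reads between them is uncertain. Dnajb1, the inducible J protein partner of HSP70, went the other way. It had 18.2, 21.1 and 17.7 FPKM in the knockout and 161.3, 137.6 and 159.6 FPKM in the controls, with a log2 fold change of -2.98 ± 0.106 (SE) and an adjusted p of 6e-08. Dnajb4, a related J protein, averaged 4.33 ± 0.148 FPKM in the knockout and 31.1 ± 3.72 FPKM in the controls, with a log2 fold change of -2.70 and an adjusted p of 1.3e-07. Within a library, where a factor for the whole library cancels, Dnajb1 stood at 4.58 ± 0.617 times Hspa1b in the knockout and at 129.6 ± 37.1 times in the controls (SD, n = 3 each).

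Hsp90aa1, the inducible cytosolic HSP90, was the most abundant chaperone of the controls. It had 368.1, 428.0 and 383.3 FPKM in the knockout and 1199, 1052 and 993.9 FPKM in the controls, a log2 fold change of -1.46 ± 0.113 (SE) with a limma adjusted p of 6.4e-06. It was also lower with rescaled FPKM (-0.27, adjusted p of 0.019) and rescaled reads (-0.54), but higher with quantile normalization (0.50). Of 50-base windows of Hsp90aa1 58.5% also occur in other annotated genes, Gm12346 above all. Dnaja1, a farnesylated J protein, averaged 24.6 ± 0.983 FPKM in the knockout and 33.4 ± 1.82 FPKM in the controls. It was lower as deposited (log2 fold change of -0.43, adjusted p of 0.0016) and higher under the 3 other scalings (0.74, 0.47 and 0.70). Hsph1, the HSP110 exchange factor, averaged 10.3 ± 1.44 FPKM in the knockout and 11.2 ± 1.66 FPKM in the controls. Its difference did not pass as deposited (-0.11 ± 0.145, adjusted p of 0.48) and was positive under the 3 other scalings (1.05, 0.77 and 0.58).

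**Figure D2:**
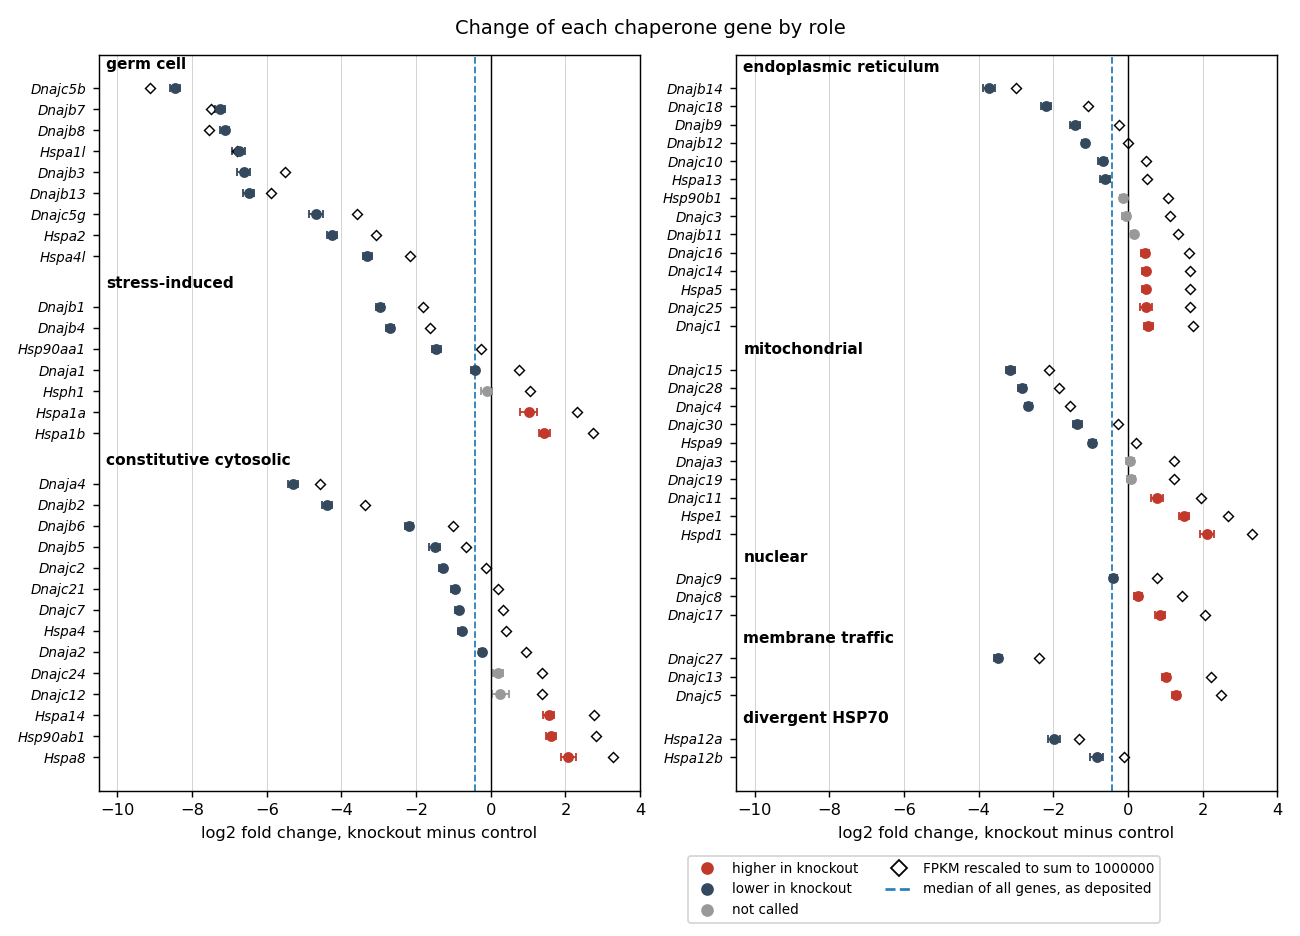
Log2 fold change of each tested chaperone member by role, knockout minus control, with filled points for the deposited FPKM (bars are SE) and open diamonds for FPKM rescaled to sum to 1000000. By its median the germ cell list lies furthest left under both scalings (-6.62 and -5.90). Dnaja4 and Dnajb2, of another role, lie left of its members Hspa2 and Hspa4l under both. Many members near 0, such as Hsp90b1, Dnaja1 and Hspa4, change sign with the scaling.

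The RNA of the HSP70 and HSP90 families, members of all compartments included, changed in make-up. Hspa8, the constitutive HSP70 of most cells (HSC70), had 228.1, 260.1 and 259.2 FPKM in the knockout and 41.9, 62.7 and 77.2 FPKM in the controls. Its log2 fold change was 2.07 ± 0.205 (SE) with a limma adjusted p of 2.7e-05. Hsp90ab1, the constitutive HSP90, had 416.1, 385.4 and 454.2 FPKM in the knockout and 113.0, 138.0 and 161.7 FPKM in the controls, with a log2 fold change of 1.61 ± 0.142 (SE) and an adjusted p of 1.3e-05. The groups did not overlap for either gene, and both rises were robust to scaling. For Hspa8, 74.8% of 50-base windows also occur in other annotated genes, Gm15459 above all, so its value depends on how such reads were counted.

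Ratios of FPKM within a library do not depend on a factor applied to the whole library. Quantile normalization is not such a factor and can change them. Hspa8 stood at 5.83, 5.84 and 8.19 times the FPKM of Hspa2 in knockout libraries and at 0.0527, 0.0901 and 0.107 times in control libraries. Hspa2 made up 4.87 ± 0.676% of HSP70 FPKM in the knockout and 48.5 ± 0.982% in the controls, while Hspa8 made up 31.6 ± 1.65% in the knockout and 4.02 ± 1.27% in the controls (SD, n = 3 each). The leading HSP70 was Hspa5 in each knockout library and Hspa2 in each control library. Hspa5 stood at 40.3 ± 2.15% in the knockout and 15.0 ± 0.626% in the controls. Hspa4 stood at 4.25 ± 0.576 times Hspa4l in the knockout and at 0.713 ± 0.0593 times in the controls. Hsp90ab1 stood at 1.07 ± 0.151 times Hsp90aa1 in the knockout and at 0.129 ± 0.0343 times in the controls. In the HSP90 family Hsp90aa1 took 40.1 ± 2.51% of FPKM in the knockout and 77.1 ± 3.05% in the controls, and Hsp90ab1 took 42.7 ± 3.61% and 9.90 ± 2.25%. No library of one group overlapped the other in any of these shares.

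**Figure D3:**
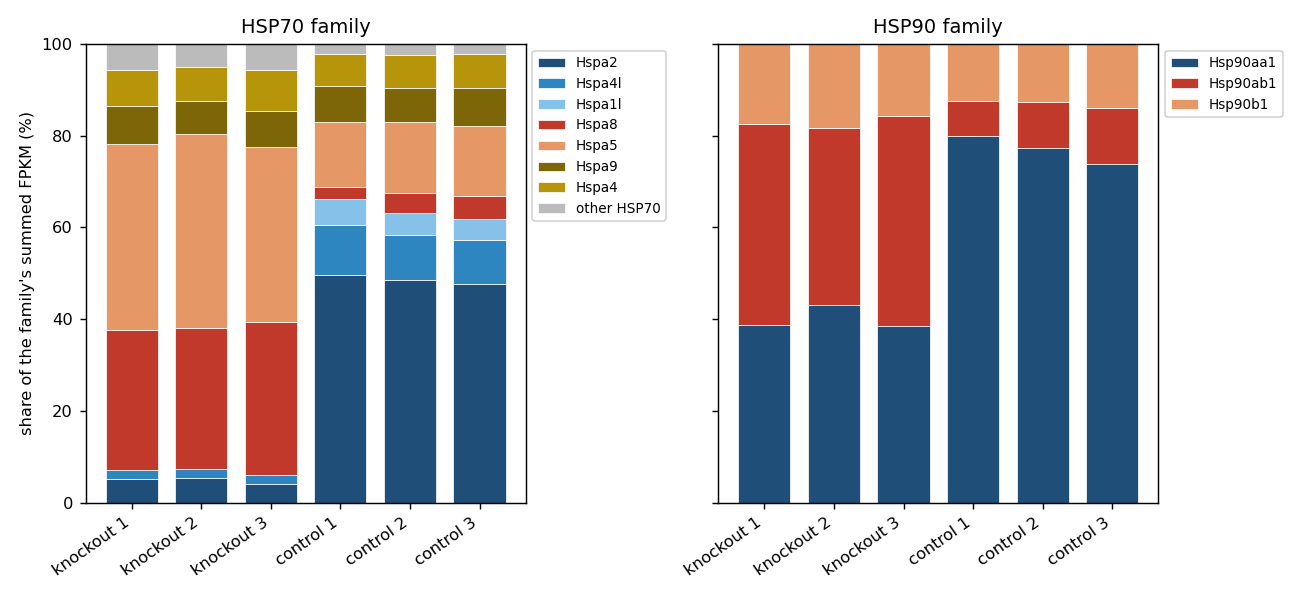
Share of summed HSP70 FPKM and of summed HSP90 FPKM held by each member, in percent, 1 bar per library, with knockout libraries left of control libraries. Hspa2 takes 4.87% of HSP70 in the knockout and 48.5% in the controls, and Hsp90ab1 takes 42.7% of HSP90 in the knockout and 9.90% in the controls.

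Of the 14 constitutive cytosolic members, 3 were higher and 9 lower as deposited, and 8 were higher and 4 lower after rescaling. The shares over all genes tested were 36.2% higher and 50.4% lower as deposited, and 54.2% and 36.2% after rescaling. Beside Hspa8 and Hsp90ab1 the third member higher as deposited was Hspa14, an HSP70 bound to ribosomes, at 19.3 ± 1.37 FPKM in the knockout and 6.34 ± 1.33 FPKM in the controls. Dnaja4 and Dnajb2 fell most as deposited. Dnaja4, a type I J protein, had 0.747, 1.18 and 0.915 FPKM in the knockout and 61.5, 52.2 and 56.0 FPKM in the controls, a log2 fold change of -5.31 ± 0.136 (SE) with a limma adjusted p of 9.5e-09. Its exons overlap Wdr61 over 44.1% of their bases, which averaged 15.4 ± 0.577 FPKM in the knockout and 6.68 ± 0.609 FPKM in the controls. Dnajb2, a J protein that hands ubiquitinated clients to the proteasome, averaged 2.84 ± 0.561 FPKM in the knockout and 68.8 ± 4.86 FPKM in the controls, with a log2 fold change of -4.39 and an adjusted p of 2.5e-08. Dnajb6, an inhibitor of aggregation, averaged 20.7 ± 0.322 FPKM in the knockout and 96.7 ± 11.9 FPKM in the controls, with a log2 fold change of -2.19 and an adjusted p of 3.9e-07. All 3 falls were robust to scaling. For Dnajb6, 42.8% of 50-base windows also occur in other annotated genes, most often in Gm2541. Hspa4, the HSP110 relative of Hspa4l, averaged 63.9 ± 5.20 FPKM in the knockout and 109.5 ± 5.57 FPKM in the controls, lower as deposited (-0.77) but with positive differences under the 3 other scalings (0.41, 0.14 and 0.80). Dnajb5, Dnajc2, Dnajc7, Dnajc21 and Dnaja2 were the other lower members as deposited, with log2 fold changes of -1.51, -1.29, -0.86, -0.97 and -0.24, and of these 5 the fall of Dnajb5 was robust to scaling. Dnaja2 lost its call without knockout library 1 or 2 or control library 1 or 3 (adjusted p of 0.062 to 0.10). Dnajc24, at 9.87 ± 0.646 FPKM in the knockout and 8.65 ± 1.33 FPKM in the controls, and Dnajc12, at 1.17 ± 0.270 FPKM in the knockout and 0.915 ± 0.376 FPKM in the controls, did not pass as deposited, though Dnajc24 did without control library 2 (adjusted p of 0.046).

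The 14 members of the endoplasmic reticulum split into 5 higher and 6 lower as deposited, with a median log2 fold change of -0.083 against -0.41 for all genes, and 10 were higher and 2 lower after rescaling. Shares over all genes tested were 36.2% higher and 50.4% lower as deposited, and 54.2% and 36.2% after rescaling. Hspa5 (BiP), the HSP70 of the endoplasmic reticulum, had 303.4, 356.7 and 294.2 FPKM in the knockout and 229.5, 223.0 and 229.9 FPKM in the controls. Its log2 fold change was 0.48 ± 0.0998 (SE) with a limma adjusted p of 0.0022, and each knockout library lay above each control library. The other 4 higher members, named after their values were seen, were Dnajc1, Dnajc14, Dnajc16 and Dnajc25. Dnajc25 lost its call when any knockout library, control library 1 or control library 3 was left out, with adjusted p of 0.054 to 0.067. Hsp90b1 (GRP94), the HSP90 of this compartment, averaged 168.0 ± 12.8 FPKM in the knockout and 182.3 ± 8.94 FPKM in the controls. Its difference did not pass as deposited (-0.12, adjusted p of 0.25) and was positive under the 3 other scalings (1.07, 0.80 and 1.62). The largest falls were those of Dnajb14, a J protein of the membrane of the endoplasmic reticulum, at 0.955 ± 0.204 FPKM in the knockout and 18.8 ± 2.87 FPKM in the controls, and of Dnajc18, at 7.32 ± 1.21 FPKM in the knockout and 35.4 ± 3.68 FPKM in the controls. Both were robust to scaling. Dnajb9 (ERdj4), a partner of BiP, averaged 28.8 ± 2.81 FPKM in the knockout and 77.8 ± 11.8 FPKM in the controls. Its log2 fold change of -1.41 passed as deposited and with rescaled reads (-0.50), but not with rescaled FPKM (-0.24) or quantile normalization (-0.038). Hspa13, a microsomal HSP70, averaged 5.69 ± 0.801 FPKM in the knockout and 8.92 ± 0.179 FPKM in the controls, lower as deposited (-0.61) but with positive differences under the 3 other scalings (0.52, 0.25 and 0.0205). Dnajc10 and Dnajb12 were the other lower members as deposited (-0.68 and -1.15), and neither was robust to scaling. Dnajb11, at 38.2 ± 0.936 FPKM in the knockout and 34.2 ± 2.30 FPKM in the controls, and Dnajc3, at 25.0 ± 3.20 FPKM in the knockout and 25.7 ± 1.04 FPKM in the controls, did not pass as deposited.

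Among the 10 mitochondrial members, 3 were higher and 5 lower as deposited, and 6 higher and 3 lower after rescaling. Shares over all genes tested were 36.2% higher and 50.4% lower as deposited, and 54.2% and 36.2% after rescaling. Hspd1 (HSP60) and Hspe1 (HSP10), which form the folding chamber of the matrix, rose together. Hspd1 had 80.2, 74.4 and 75.3 FPKM in the knockout and 12.6, 19.2 and 21.7 FPKM in the controls, a log2 fold change of 2.11 ± 0.185 (SE) with a limma adjusted p of 1.3e-05. Hspe1 had 47.7, 47.9 and 56.2 FPKM in the knockout and 15.3, 20.9 and 17.0 FPKM in the controls, a log2 fold change of 1.49 ± 0.132 (SE) with an adjusted p of 1.4e-05. For either gene 44.8% of 50-base windows also occur in other annotated genes. Dnajc11, a J protein of the cristae junction complex, was the third higher member, at 5.90 ± 0.293 FPKM in the knockout and 3.31 ± 0.738 FPKM in the controls. All 3 rises were robust to scaling. Hspa9 (mortalin), the HSP70 that pulls proteins into the matrix, averaged 61.2 ± 0.593 FPKM in the knockout and 119.8 ± 10.9 FPKM in the controls. It was lower as deposited (-0.96) and with rescaled reads (-0.044, not past the threshold), and higher with rescaled FPKM (0.22) and quantile normalization (0.63). The falls of Dnajc15, a J protein of the import motor, Dnajc28 and Dnajc4 were robust to scaling, with log2 fold changes of -3.14, -2.84 and -2.67 as deposited. Dnajc15 averaged 3.41 ± 0.490 FPKM in the knockout and 34.0 ± 3.57 FPKM in the controls. Dnajc30 was also lower as deposited (-1.35) but not robust to scaling. Dnaja3, at 17.4 ± 1.65 FPKM in the knockout and 16.6 ± 1.44 FPKM in the controls, and Dnajc19, at 4.599 ± 0.492 FPKM in the knockout and 4.30 ± 0.0893 FPKM in the controls, did not pass as deposited.

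The remaining roles held few genes. Of the membrane traffic members 3 of 5 were tested. Dnajc27, a small GTPase with a J domain, averaged 5.56 ± 0.475 FPKM in the knockout and 66.7 ± 6.97 FPKM in the controls, with a log2 fold change of -3.47 and a limma adjusted p of 3e-08. Dnajc5, the cysteine string protein of most tissues, averaged 15.1 ± 0.898 FPKM in the knockout and 5.92 ± 0.696 FPKM in the controls, opposite in direction to its testis relatives Dnajc5b and Dnajc5g. Dnajc13, a J protein of endosomes, averaged 14.6 ± 1.08 FPKM in the knockout and 6.95 ± 0.516 FPKM in the controls. These 3 directions were robust to scaling. Dnajc22 and Dnajc6 (auxilin), which uncoats clathrin vesicles, stayed under the filter, with means of 0.128 and 0.143 FPKM in the knockout and 0.733 and 0.527 FPKM in the controls. The nuclear member Dnajc17 was higher, at 8.03 ± 1.29 FPKM in the knockout and 4.18 ± 0.0926 FPKM in the controls. Dnajc8, which is linked to the spliceosome, was higher by 0.28 with an adjusted p of 0.033, a call that was lost when any knockout library, control library 1 or control library 2 was left out (adjusted p of 0.057 to 0.098). Dnajc9, a histone chaperone with a J domain, was lower as deposited (-0.40) and higher under the 3 other scalings (0.78, 0.51 and 0.67). The divergent HSP70 genes were both lower as deposited. Hspa12a averaged 0.658 ± 0.133 FPKM in the knockout and 4.08 ± 0.520 FPKM in the controls, robust to scaling. Hspa12b averaged 0.584 ± 0.141 FPKM in the knockout and 1.44 ± 0.226 FPKM in the controls, a fall of which the sign changed with quantile normalization (0.67).

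Promoters are shown for a few members, most of which hold an element marked below, to set their sequence beside their direction. They do not stand for the chaperone genes as a set. The sequences are from RefSeq on GRCm38.p6 and run from 250 bases before the start of the gene to 50 bases after it, 5′ to 3′ on the strand of the gene. The start is the first one RefSeq lists, which lies 16 bases downstream of the start of the deposited gene model for Hspe1, 210 for Dnajb6, 120 for Hspa5 and 194 for Hspa2, and 0 for Hspa1b. Capitals mark a heat shock element in Hspe1 and Dnajb6 (3 or more units) and its shorter form in Hspa1b (2 units), as defined below. In Hspa5 they mark an endoplasmic reticulum stress element. None of these was found in the window of Hspa2.
Hspe1, chr1:55087898-55088197, plus strand: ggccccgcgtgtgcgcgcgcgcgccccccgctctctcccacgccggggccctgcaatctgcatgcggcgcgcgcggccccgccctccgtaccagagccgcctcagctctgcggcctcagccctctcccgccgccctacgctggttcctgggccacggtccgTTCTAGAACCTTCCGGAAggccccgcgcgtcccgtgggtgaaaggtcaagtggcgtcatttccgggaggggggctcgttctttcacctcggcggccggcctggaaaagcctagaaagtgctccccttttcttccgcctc
Dnajb6, chr5:29735648-29735947, plus strand: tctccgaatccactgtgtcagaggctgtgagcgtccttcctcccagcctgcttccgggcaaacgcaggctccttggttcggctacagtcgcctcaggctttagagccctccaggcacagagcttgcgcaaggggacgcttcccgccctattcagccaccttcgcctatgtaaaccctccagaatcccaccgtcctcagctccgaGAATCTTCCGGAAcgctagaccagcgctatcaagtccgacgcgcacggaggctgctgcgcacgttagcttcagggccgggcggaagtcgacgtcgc
Hspa1b, chr17:34959189-34959488, minus strand: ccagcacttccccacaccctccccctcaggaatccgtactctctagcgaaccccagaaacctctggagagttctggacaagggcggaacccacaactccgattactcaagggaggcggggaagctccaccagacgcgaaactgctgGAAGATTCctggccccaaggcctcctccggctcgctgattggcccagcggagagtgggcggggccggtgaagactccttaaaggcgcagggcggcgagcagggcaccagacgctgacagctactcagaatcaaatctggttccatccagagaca
Hspa5, chr2:34771840-34772139, plus strand: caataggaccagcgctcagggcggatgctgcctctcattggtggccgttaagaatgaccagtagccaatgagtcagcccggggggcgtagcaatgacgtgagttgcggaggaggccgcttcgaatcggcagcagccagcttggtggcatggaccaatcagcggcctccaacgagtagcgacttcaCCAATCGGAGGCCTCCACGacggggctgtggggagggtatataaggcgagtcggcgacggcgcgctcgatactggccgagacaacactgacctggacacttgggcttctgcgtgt
Hspa2, chr12:76404120-76404419, plus strand: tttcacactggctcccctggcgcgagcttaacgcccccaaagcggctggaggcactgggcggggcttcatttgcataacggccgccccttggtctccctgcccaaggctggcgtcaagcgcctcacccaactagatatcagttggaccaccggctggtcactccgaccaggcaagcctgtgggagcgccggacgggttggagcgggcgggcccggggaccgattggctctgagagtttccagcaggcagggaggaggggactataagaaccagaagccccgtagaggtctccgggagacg

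Promoters were found for 51 of the 64 chaperone genes and for 27025 genes in all. The heat shock element was searched as alternating GAA and TTC units 2 bases apart, in either order and on both strands. With 3 units it occurred in 4 chaperone genes, Hspd1, Hspe1, Dnajb6 and Hsph1, or 7.84%, and in 0.662% of all genes. The sites of Hspd1 and Hspe1 are the same bases, read on both strands of their shared promoter. With 2 units (GAANNTTC or TTCNNGAA, which the longer form contains) it occurred in 12, or 23.5%, and in 17.0% of all genes. The shorter form was present in 5 of the 6 stress-induced members with a promoter (Hspa1a, Hspa1b, Hsph1, Dnaja1 and Dnajb4) and in 1 of the 8 germ cell members (Dnajc5g). Of the 4 genes with the longer form, Hspd1 and Hspe1 were higher and Dnajb6 was lower under each scaling. Hsph1 did not pass as deposited and was higher under the 3 other scalings. Whether the element bears on direction was not tested. The endoplasmic reticulum stress element (CCAAT and CCACG 9 bases apart, both strands) was searched after the values were seen. It occurred in Hspa5, Hsp90b1 and Dnajc3, or 5.88% of chaperone genes, and in 0.137% of all genes. A cAMP response element (TGACGTCA), also searched after the values were seen, occurred in Dnajc27 alone, 1.96% of chaperone genes against 2.03% of all genes. A match describes these letters and shows no binding.

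Members that lie side by side did not always move together. Hspd1 and Hspe1 lie head to head on opposite strands, their deposited gene models share 112 exon bases, and both genes were higher. The starts of Hspa1a and Hspa1l are 547 bases apart, and Hspa1a was higher while Hspa1l was lower under each scaling. Within a library Hspa1b stood at 20.8, 39.9 and 12.7 times the FPKM of Hspa1l in the knockout and at 0.0113, 0.0234 and 0.0154 times in the controls. The promoters of Hspa1a and Hspa1b differ at 4 of 300 bases, and the ratio of Hspa1b to Hspa1a was 2.48 ± 0.700 in the knockout and 2.02 ± 0.237 in the controls, with overlapping libraries.

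Genes that work with these chaperones but fall outside the naming rule were described by 6 lists. For comparison, 36.2% of all genes tested were higher and 50.4% lower as deposited. With rescaled FPKM these shares were 54.2% and 36.2%. Of the heat shock factors and their partners, 1 of 6 tested was higher and 5 lower as deposited, with a median log2 fold change of -2.11, and 1 was higher and 3 lower with rescaled FPKM. Hsf1, the main factor of the heat shock response, averaged 11.8 ± 0.639 FPKM in the knockout and 6.69 ± 0.526 FPKM in the controls, higher under each scaling. Hsfy2, a testis gene of the same family, had 0, 0.0355 and 0 FPKM in the knockout and 117.7, 106.1 and 84.8 FPKM in the controls. Hsf5, which is needed for male meiosis in the mouse, averaged 4.30 ± 0.701 FPKM in the knockout and 119.9 ± 16.8 FPKM in the controls, with a log2 fold change of -4.65 and a limma adjusted p of 2.8e-08. Hsbp1, which binds heat shock factor 1, averaged 42.2 ± 3.87 FPKM in the knockout and 320.1 ± 27.9 FPKM in the controls, lower under each scaling. Hsf2 was lower as deposited (-1.04) but did not pass with rescaled FPKM, where its difference was positive (0.094).

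Of 8 small heat shock proteins tested, 3 were higher and 5 lower as deposited. Odf1, a structural protein of the sperm tail with an alpha-crystallin domain, had 0.334, 0.492 and 0.219 FPKM in the knockout and 1768, 1480 and 1414 FPKM in the controls, a log2 fold change of -10.85 ± 0.142 (SE) with a limma adjusted p of 1e-09. Odf1 is also 1 of the 13 spermatid markers. Hspb9, a testis member, averaged 0.953 ± 0.297 FPKM in the knockout and 824.9 ± 82.6 FPKM in the controls. Hspb1 (HSP25), a small heat shock protein found in many tissues, had 74.7, 48.9 and 41.1 FPKM in the knockout and 10.4, 11.1 and 12.9 FPKM in the controls, with a log2 fold change of 2.17 and an adjusted p of 2.3e-05. Hspb8 and Hspb11 were the other 2 higher members. Hspb8, the partner of Bag3, averaged 3.88 ± 0.661 FPKM in the knockout and 0.274 ± 0.0520 FPKM in the controls. Directions of the 5 named here were the same under each scaling.

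Of 14 HSP70 nucleotide exchange and adaptor genes, 5 were higher (Bag2, Bag4, Hyou1, Grpel2 and Stub1) and 8 lower as deposited, and 7 higher and 5 lower with rescaled FPKM. Bag5, an exchange factor, had 5.99, 5.75 and 4.08 FPKM in the knockout and 388.8, 330.7 and 366.2 FPKM in the controls, a log2 fold change of -5.99 ± 0.146 (SE) with a limma adjusted p of 7.3e-09. Bag6, which is required in mouse spermatocytes to stabilise HSPA2, averaged 43.0 ± 1.12 FPKM in the knockout and 293.1 ± 31.0 FPKM in the controls. Of 16 HSP90 cochaperones, 6 were higher and 8 lower as deposited, and 15 higher and 0 lower with rescaled FPKM. Their median log2 fold change with rescaled FPKM was 1.07, against 0.71 for all genes. Fkbp6, which works with HSP90 in piRNA loading in the male germ line, averaged 95.6 ± 2.40 FPKM in the knockout and 28.1 ± 7.40 FPKM in the controls, with a log2 fold change of 1.78 and an adjusted p of 3.7e-05. Fkbp4 averaged 88.5 ± 7.47 FPKM in the knockout and 202.2 ± 12.4 FPKM in the controls, lower as deposited (-1.19) but higher with quantile normalization (0.47).

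The chaperonin TRiC, the cytosolic folding ring for actin and tubulin, had 7 of 9 genes lower and 1 higher as deposited, and 4 lower and 4 higher after rescaling. Cct6b, the testis form of its zeta subunit, had 0.864, 1.77 and 0.723 FPKM in the knockout and 267.0, 203.1 and 226.5 FPKM in the controls, a log2 fold change of -7.21 ± 0.230 (SE) with a limma adjusted p of 3.2e-08. Cct6a, the common form, averaged 59.0 ± 7.60 FPKM in the knockout and 56.3 ± 5.31 FPKM in the controls and did not pass as deposited. The higher gene, Cct8, changed by 0.21 with an adjusted p of 0.036, and the call was lost without knockout library 2 or 3 or control library 2 or 3 (adjusted p of 0.06 to 0.14). Of 15 unfolded protein response genes 9 were higher and 5 lower as deposited, with a median of 0.49. Pdia4, a disulfide isomerase, averaged 95.3 ± 6.78 FPKM in the knockout and 22.2 ± 3.74 FPKM in the controls, a log2 fold change of 2.09 with an adjusted p of 2.2e-06. Herpud1, a factor of degradation from the endoplasmic reticulum, went the other way, at 6.44 ± 0.663 FPKM in the knockout and 109.4 ± 7.72 FPKM in the controls. Both directions held under each scaling.

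**Figure D4:**
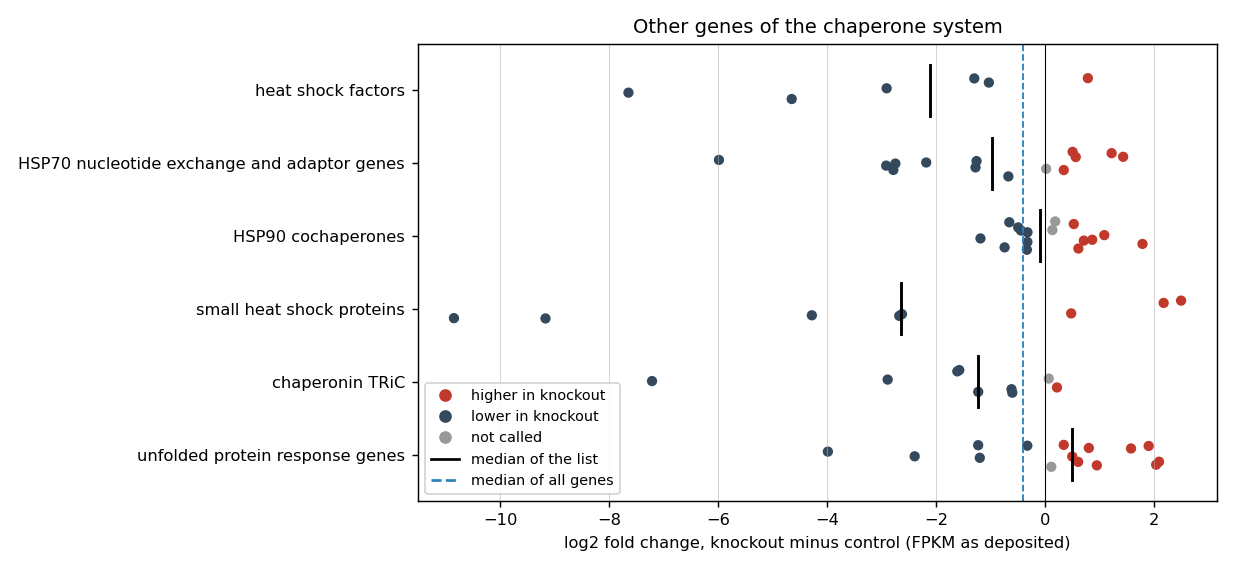
Log2 fold change, knockout minus control, of the genes of each partner list, 1 point per gene, with the list's median as a bar and the median of all genes tested (-0.41) as a dashed line, on the deposited scale. Testis genes such as Odf1, Hspb9, Hsfy2 and Cct6b lie below -7, while Hspb8, Hspb1 and Pdia4 lie above 2.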

How the data were processed

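Gene expression was measured by RNA sequencing in 3 conditional knockout and 3 control libraries, grouped and numbered by the titles in the labels. The submitters' processing notes name HISAT2 2.0.5 as a tool and mm10 as the build. How reads were counted, on which annotation, and whether strand was used or reads with several matches were kept is not stated there. The authors deposited FPKM values per gene with gene length, coordinates and biotype. FPKM times length gave whole multiples of 1 read for 100% of nonzero values, within 0.01 read, and so the reads per gene and library. No molecular identifiers are named, so read intervals cover counting error only.

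The test took genes averaging 1 FPKM or more and used limma 3.58.1 (R 4.3.3) on log2(FPKM + 0.5), with a mean-variance trend and Benjamini-Hochberg adjustment over 16791 genes. Fold changes on this scale understate the change of low genes. The model was tested on simulated data. Few genes changed in them and the library factors were known, so that test does not bear on the scale between groups. The members, role lists and partner lists were chosen with earlier results of these data known. The text names all HSP70, HSP90, chaperonin, germ cell and stress-induced genes, the 3 called members with the largest change of each other role, and, of each partner list, genes from among the 2 with the smallest p and those opposite to most of the list. Further names were added after values were seen, to account for the remaining members. The partner genes Hsbp1, Hsf2, Cct6a and Pdia4 were also named outside this rule.

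Of the members, 61 have the same coordinates in GENCODE M21, which was used for exon overlap and for windows of 50 bases shared between transcripts. Promoters were taken from RefSeq (GRCm38.p6). Protein sequences were not analysed here. Alternatives were other pseudocounts, filters and scalings, no trend, limma voom on recovered reads, a replicate block and leaving out each library. Python 3.11.15 with pandas 2.3.3 and matplotlib 3.10.9 prepared tables and figures.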

Additional observations from a re-analysis of the deposited data

How the results depend on the processing

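The sign of small changes moved with the scale set between the groups. The cause of the differences listed here was not tested beyond what each alternative sets. Members called higher numbered 17 as deposited, 33 with FPKM rescaled to sum to 1000000, 28 with rescaled reads and 34 with quantile normalization, and members called lower numbered 37 as deposited, 23 with rescaled FPKM and 24 with quantile normalization. Of the 7 stress-induced members, 4 were higher with rescaled FPKM, 4 with rescaled reads and 5 with quantile normalization, which left 2 lower. A filter at 5 FPKM, which tests fewer genes, left 8547 genes called, 3227 higher and 5320 lower, and 0 stress-induced members higher, since Hspa1a and Hspa1b are under it.

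Log2 fold changes that changed sign, in the order rescaled FPKM, quantile normalization and rescaled reads, were 1.07, 1.62 and 0.80 for Hsp90b1, 0.41, 0.80 and 0.14 for Hspa4, 1.05, 0.58 and 0.77 for Hsph1, 0.52, 0.0205 and 0.25 for Hspa13, 0.74, 0.70 and 0.47 for Dnaja1, 0.78, 0.67 and 0.51 for Dnajc9, 0.95, 1.34 and 0.68 for Dnaja2, 0.31, 0.33 and 0.0478 for Dnajc7, 0.50, 0.46 and 0.23 for Dnajc10, 1.13, 1.03 and 0.86 for Dnajc3, and 0.85, 1.00 and 0.58 for Manf. Hspa9 changed sign with rescaled FPKM (0.22) and quantile normalization (0.63), as did Dnajc21 (0.20 and 0.0084). With quantile normalization so did Hsp90aa1 (0.50), Hspa12b (0.67), Dnajc2 (0.13), Fkbp4 (0.47) and Creld2 (0.43). Over 92 genes (every member tested and the partner genes of the naming rule) and 16 alternatives, 1359 of 1459 comparisons kept direction and call, 40 lost the call, 16 gained it and 44 changed sign. As shares of reads, which weight long genes more, Hspa2 took 2.90% of HSP70 in the knockout and 30.2% in the controls, and in the knockout Hsp90ab1 took 36.1% and Hsp90aa1 44.4% of HSP90. The heat shock element occurred in 12 promoters in its 2-unit form and in 4 with 3 units.

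Deviations from the group means of libraries with the same number correlated at -0.122, -0.053 and -0.04. With 3 libraries per group these values cannot settle whether libraries were paired, and the labels name no pairing. With the replicate block 14294 genes and 52 members were called, against 14537 and 54 without it. The calls lost with the replicate block among members were those of Dnajc8 (adjusted p of 0.074) and Dnaja2 (adjusted p of 0.079). Limma voom on the recovered reads called 14451 genes and 54 members. Leaving out each library in turn gave 51 to 54 called members, and the 9 germ cell members were lower each time. The log2 fold changes of Dnajc3 and Dnaja3, neither of them called, then ran from -0.1445 to 0.0292 and from -0.0018 to 0.1395. Low read numbers limit the fold of Dnajc5b, Dnajb7, Dnajb8 and Hspa1l. Shared sequence limits Hspa8, Hspa1a, Hspa1b, Hsp90aa1, Hspd1, Hspe1 and Dnajb6, among others.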
